A study of Mus musculus with 145 samples.

Results

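Dusp4, Dusp5, Dusp6, Dusp9, Spry1, Spry2, Spry4, Spred1, Etv4 and Egr1 are genes whose transcripts follow signalling through the ERK kinases, and most of them act back on that pathway. These 10 genes were taken by name, out of 24615 genes in the count table of the original reprogramming condition and 28692 genes in the count tables of the 5C and DMSO cultures. They were put together with earlier results of these data in view. Which measured values led to the choice is not recorded in the sources used here. The number of these genes that changed and their median change are therefore descriptions, and nothing is read from them.

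Growth factors such as FGF, EGF and GDNF bind receptor tyrosine kinases, which pass the signal through RAS, RAF and MEK to ERK. Active ERK switches on transcription factors and also its own brakes: dual-specificity phosphatases remove the phosphates from ERK, and Sprouty and Spred proteins dampen the step from receptor to RAF. In mouse embryonic stem cells (ESCs) this pathway drives exit from the naive state, and a MEK inhibitor is part of the 2iL medium that holds them there, while spermatogonial stem cells (SSCs) depend on GDNF and FGF.

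SSCs from Oct4-EGFP male pups (C57BL/6 mother and DBA father in the labels, DBA/2 in the study's methods) were kept on mouse embryonic fibroblasts in SSC medium with EGF, bFGF and GDNF, where some convert to pluripotent cells without introduced genes. Single cells were picked from SSC-like and pluripotent-like colonies, so shares of cells follow the picking. In the first set 4464 cells of 49 libraries were sequenced by STRT-seq, a method that counts tagged transcript molecules (UMIs). They came from days 0 to 27 of the original condition, with no added compound, and from 3 cultures in 2iL medium. These were germline-derived pluripotent stem cells (gPSCs) at passage 1 and passage 15, and mouse ESCs. The second set holds the RNA part of scTrio-seq2 for 724 cells in 8 libraries given 5C (SGC707, vitamin C, EGCG, Daphnetin and TUDCA) and 365 cells in 5 libraries given the solvent DMSO.

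By the day written in the column names, 5C cells came from days 12, 14 and 16, and DMSO cells from days 20 and 24 plus 8 cells of day 0. Treatment and day therefore cannot be told apart. The cells were split at a Dazl level of 400 CPM (UMIs of a gene per 1000000 UMIs of the cell). Dazl is an RNA-binding protein of germ cells. The split gave 158 Dazl-low and 566 Dazl-high cells in 5C, and 159 and 206 in DMSO. The highest value below the threshold was 396 CPM in 5C and 382 in DMSO, and the lowest above it was 403 and 472. Between 300 and 400 CPM there were 9 cells in 5C and 1 in DMSO, and between 400 and 500 there were 4 and 2. In the 9 5C cells just below the threshold the pooled level of Spry2 was 87.5 CPM, against 104 CPM in the 4 just above it. Spry4 was at 71.6 below and 9.46 CPM above, Etv4 at 68.9 and 28.4 CPM, Egr1 at 47.7 and 89.9 CPM, and Dusp6 at 115 and 125 CPM.

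Counts were summed over the cells of one class in one library where at least 5 cells were present, and levels are in CPM of each sum. Totals per library ran from 5881566 to 10724925 UMIs in 5C and from 3889964 to 8062911 in DMSO. In the STRT-seq set, with the cultures in 2iL, they ran from 10833720 to 34609591. No cell shared its whole set of values with another, and the barcodes mark positions that all libraries reuse. In Dazl-low sums the 8 pluripotency markers together made up 2645 to 3629 CPM in 5C and 3719 to 3953 CPM in DMSO, and in Dazl-high sums 178 to 1415 CPM in 5C and 227 to 1151 CPM in DMSO. In Dazl-high sums the 6 germ cell markers made up 2249 to 2973 CPM in 5C and 2752 to 3471 CPM in DMSO. These 6 include Dazl, which defined the class and made up 1159.9 to 1521 and 1122 to 1272 CPM. Pou5f1, itself a marker of pluripotency, was at 16.6 to 46.4 CPM in Dazl-low 5C sums. The 8 feeder fibroblast markers together were at 151 to 703 CPM in Dazl-low 5C sums and 102 to 128 CPM in DMSO, most of it Sparc (145 to 695 and 99.8 to 123 CPM). Of the others, Dcn reached 57.2 CPM and Col1a1 18.01 CPM in 5C, and Lum and Pdgfrb were at 0 in all Dazl-low sums. Nothing in the labels says that libraries came from separate cultures, so p-values measure the spread between libraries. Some column names differ only in their last number. These are DMSO replicates 1 and 2, DMSO replicate 4 and the day 24 cells of replicate 5, and cells of 5C replicates 2, 4 and 7. Whether such libraries share a collection of cells is not stated, and the tests treat them as separate samples.

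The promoter sequences of 5 of the 10 genes (Dusp5, Dusp6, Spry1, Spry2 and Spred1) were found in the RefSeq table for build GRCm38.p6, and those 250 bases before each start were searched on both strands. Those of the 3 that held a searched motif are printed. ERK acts on genes through ETS factors and through serum response factor, which binds the CArG box. Dusp6 and Spred1 each held 1 copy of the ETS core CGGAAG, which 13.6% of the 32851 promoters in the table hold. Dusp5 held 2 CArG boxes starting 72 and 82 bases before its RefSeq start, a motif found in 1.47% of the promoters. None of the 5 held TGACGTCA (1.55% of promoters) or TGACTCA (4.46%). The stretches, all on the plus strand, lie at chr10:99262981-99263230 (Dusp6), chr2:117120821-117121070 (Spred1) and chr19:53528895-53529108 (Dusp5, shown up to the first annotated exon). Starts in that table are not the gene starts given further on for Dusp5, whose RefSeq start lies downstream of it, or for Spred1, whose RefSeq start lies upstream. Capitals mark the ETS core in either direction in Dusp6 and Spred1, and the adjacent CArG boxes in Dusp5.
Dusp6: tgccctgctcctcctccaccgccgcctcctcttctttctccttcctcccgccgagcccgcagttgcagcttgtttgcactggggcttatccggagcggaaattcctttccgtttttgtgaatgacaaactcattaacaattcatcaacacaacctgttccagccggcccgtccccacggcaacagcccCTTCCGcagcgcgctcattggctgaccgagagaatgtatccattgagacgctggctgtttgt
Spred1: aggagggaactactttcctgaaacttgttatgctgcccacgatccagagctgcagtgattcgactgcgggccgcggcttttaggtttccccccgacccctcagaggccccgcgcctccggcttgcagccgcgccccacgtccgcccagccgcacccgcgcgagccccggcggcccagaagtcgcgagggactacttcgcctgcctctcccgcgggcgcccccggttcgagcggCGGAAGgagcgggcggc
Dusp5: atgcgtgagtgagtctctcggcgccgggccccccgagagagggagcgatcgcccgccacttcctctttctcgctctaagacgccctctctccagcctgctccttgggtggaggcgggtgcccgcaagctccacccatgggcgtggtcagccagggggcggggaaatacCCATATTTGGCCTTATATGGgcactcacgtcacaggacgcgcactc

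In Dazl-high, germ-like cells, 8 of the 10 genes were higher with 5C than with DMSO and none was lower (edgeR quasi-likelihood test, adjusted p under 0.05 over all genes tested). Of all 12452 genes tested in that comparison 23.8% were called, 12.3% higher and 11.5% lower. The median log2 fold change was 1.71 over the 10 genes and 0.03 over all genes tested. For 6 genes (Dusp5, Dusp9, Spry1, Spry2, Spry4 and Spred1) every 5C library lay above every DMSO library. How many of all genes tested did so was not counted, so nothing is read from this number.

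**Figure D1:**
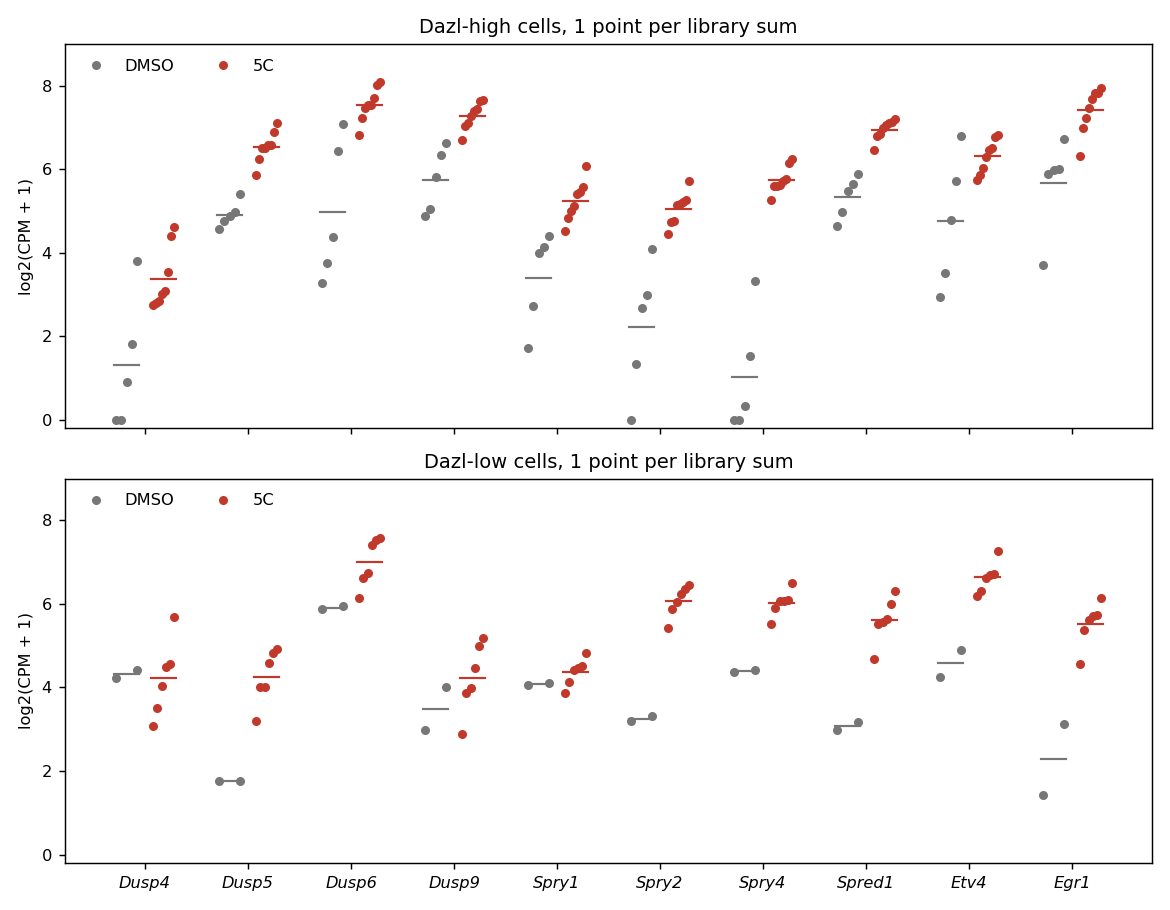
Level of each of the 10 genes, as log2(CPM + 1), in Dazl-high cells (top) and Dazl-low cells (bottom). Each point is the sum of one library, red for 5C and grey for DMSO, and bars are means. In Dazl-high cells 6 genes showed no overlap between treatments, and in the other 4 the treatments overlapped. The share of all genes without overlap was not counted.

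Spry4 and Spry2 had the largest log2 fold changes of the 10 genes. Spry4 (inhibitor of the step from receptor to RAF) reached 37.6 CPM in the lowest, 49.8 in the median and 74.6 CPM in the highest of the 8 Dazl-high 5C libraries. In DMSO replicates 1 to 5 it was at 0, 9.03, 1.88, 0.254 and 0 CPM, which is 23 UMIs in all. The Dazl-high DMSO sums thus held next to no Spry4 transcript, and the fitted log2 fold change was 5.18 ± 0.59 (SE; edgeR adjusted p = 7.65e-06), and 5.86 without DMSO replicate 2, where its DMSO level was highest. Spry2, which acts at the same step and lies on the minus strand of chr14:105891947-105896819, ran from 20.7 through a median of 34.7 to 51.4 CPM in 5C. It was at 16.1, 0, 5.38, 1.52 and 6.94 CPM in DMSO, with a log2 fold change of 2.64 ± 0.48 (edgeR adjusted p = 0.000549). Spry1 (chr3:37639947-37644598) was at 21.9, 37.5 and 66.3 CPM in the lowest, median and highest 5C library. Its DMSO levels were 20.1, 16.8, 15.02, 5.59 and 2.31 CPM, so that the closest libraries of the treatments nearly met, and its log2 fold change was 1.81 ± 0.43 (edgeR adjusted p = 0.00466). Spred1, a relative that holds RAS signalling down together with neurofibromin (chr2:117121374-117182279), was at 87.5 to 146 CPM in 5C with a median of 129.8. In DMSO it was at 58.3, 49.0, 30.4, 43.7 and 24.2 CPM, and its log2 fold change of 1.61 ± 0.22 had an edgeR adjusted p of 4.05e-05.

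Of the phosphatases, Dusp5, Dusp6 and Dusp9 were higher in 5C. Dusp5, a nuclear phosphatase for ERK (chr19:53529109-53542431), ran from 56.8 through a median of 92.2 to 136 CPM in 5C. In the 5 DMSO libraries it was at 26.1, 28.4, 30.4, 22.8 and 41.1 CPM, a log2 fold change of 1.58 ± 0.22 (edgeR adjusted p = 5.57e-05). Both groups were tight for this gene. Dusp9 (chrX:73639419-73643514), also a phosphatase for ERK, was at 103 to 202 CPM in 5C and at 98.4, 55.5, 80.7, 28.7 and 32.4 CPM in DMSO. Its log2 fold change was 1.41 ± 0.27 (edgeR adjusted p = 0.0008).

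Dusp6, the cytoplasmic ERK phosphatase most often used as a readout of the pathway (chr10:99263231-99267489), was at 113, 184 and 271 CPM in the lowest, median and highest 5C library. In DMSO it fell into an upper pair, 86.4 and 134 CPM in replicates 1 and 2, and 19.9, 8.63 and 12.6 CPM in replicates 3, 4 and 5. Its log2 fold change was 2.05 ± 0.51 (edgeR adjusted p = 0.00632), and 3.07 without DMSO replicate 2, the higher of the pair. Replicates 1 and 2 had 8 and 13 Dazl-high cells beside 80 and 77 Dazl-low cells, whereas replicates 3 to 5 were nearly all Dazl-high. Etv4, an ETS transcription factor of the FGF response (chr11:101769742-101785371), split in the same way, with 110.5 and 51.6 CPM in DMSO replicates 1 and 2 and 26.8, 10.4 and 6.68 CPM in the other 3. In 5C Etv4 was at 52.7 to 113 CPM, and its log2 fold change of 1.16 ± 0.47 did not pass the test (edgeR adjusted p = 0.0814). Etv4 was called higher without DMSO replicate 1, where its log2 fold change was 1.88, and also without DMSO replicate 2. In those sums the pluripotency markers together were at 1151 and 808 CPM in replicates 1 and 2 and at 227 to 613 CPM in replicates 3 to 5, and Tdgf1, one of them, was at 349.5 and 272 CPM against 0 to 0.514 CPM. The part of these transcripts in the Dusp6 and Etv4 levels was not tested.

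Egr1, an immediate early transcription factor induced within minutes of ERK activity, ran from 78.7 through a median of 189.9 to 246 CPM in 5C. In DMSO it was at 12.1, 58.1, 105, 62.7 and 63.2 CPM, so that only the lowest 5C library, replicate 1, lay within the DMSO range. Its log2 fold change was 1.41 ± 0.29 (edgeR adjusted p = 0.00167). Egr1 also responds to cell handling, and the summed level of 12 genes of the dissociation response was 531 to 823 CPM in 5C and 423 to 716 CPM in DMSO. Of the 11 of them tested, 4 were higher and 2 lower in 5C, and their part in the Egr1 difference was not tested. Dusp4, a nuclear phosphatase for ERK (chr8:34807297-34819894), was low throughout, at 5.68 to 23.7 CPM in 5C and 0, 12.9, 0.876, 2.54 and 0 CPM in DMSO, and did not pass the test (log2 fold change 1.98 ± 0.85, edgeR adjusted p = 0.0967). Without DMSO replicate 2 it was called, with a log2 fold change of 3.34.

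The 5C libraries closest in day to DMSO were replicates 6 and 8, of day 16. With only these 5C libraries set against DMSO cells of days 20 and 24, 2 of the 10 genes were called higher, Dusp5 and Spry4, in a comparison that called 42 genes higher and 70 lower in all. The other 8 did not pass, with log2 fold changes from 0.96 for Etv4 (edgeR adjusted p = 0.617) to 2.67 for Spry2 (adjusted p = 0.153).

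In Dazl-low, pluripotent-like cells, 6 of the 10 genes were higher with 5C (Dusp5, Spry2, Spry4, Spred1, Etv4 and Egr1) and none was lower. Of 11647 genes tested 16.7% were called, 6.83% higher and 9.89% lower. The median log2 fold change was 1.45 over the 10 genes and 0.09 over all. This comparison rests on 6 libraries against 2, as DMSO Dazl-low cells in sufficient number came only from replicates 1 and 2, both of day 20. The column names of these 2 differ only in the last number, so they may not be independent. Leaving out DMSO replicate 1 left 1 of the 10 called, Spry2, and of all genes 158 higher and 468 lower. Leaving out DMSO replicate 2 left 4 of the 10, and of all genes 115 higher and 459 lower, so calls were lost across all genes.

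Spry2 was at 41.6, 69.4 and 86.2 CPM in the lowest, median and highest Dazl-low 5C library and at 8.89 and 8.16 CPM in DMSO, a log2 fold change of 2.52 ± 0.37 (edgeR adjusted p = 0.000306). Egr1 was at 22.6, 49.8 and 70.1 CPM in 5C against 1.71 and 7.68 CPM in DMSO (log2 fold change 2.88 ± 0.58, edgeR adjusted p = 0.00314). For both genes the lowest 5C library lay well above the higher of the DMSO libraries. The Egr1 log2 fold change was 2.19 without DMSO replicate 1, where it was not called, and 4.28 without DMSO replicate 2. The summed level of the dissociation response genes was also higher in every Dazl-low 5C library, at 426 to 709 CPM against 401 and 412 CPM in DMSO. None of the 10 of them tested was called, and their part in the Egr1 difference was not tested.

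Spred1 was at 24.6 to 77.8 CPM in 5C and 6.83 and 8.0 CPM in DMSO (log2 fold change 2.33 ± 0.44, edgeR adjusted p = 0.00216). Dusp5 was at 8.2 to 29.1 CPM in 5C and at 2.39 and 2.4 CPM in DMSO, from 14 and 15 UMIs (log2 fold change 2.59 ± 0.63, edgeR adjusted p = 0.0113). Etv4 was at 72.0 to 152 CPM in 5C and 18.1 and 28.8 CPM in DMSO (log2 fold change 1.66 ± 0.33, edgeR adjusted p = 0.00294). Spry4 was at 44.6 to 89.4 CPM in 5C and 19.6 and 20.3 CPM in DMSO (log2 fold change 1.24 ± 0.32, edgeR adjusted p = 0.0152). In each of these 4 genes the 5C and DMSO ranges did not overlap. The DMSO range is that of 2 libraries, and how many of all genes did so was not counted.

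Dusp6 was also above DMSO in all 6 Dazl-low 5C libraries, at 69.2 to 189.9 CPM against 57.4 and 60.6 CPM, but did not pass the test (log2 fold change 0.77 ± 0.33, edgeR adjusted p = 0.132). Dusp4 was at 7.41 to 50.6 CPM against 17.6 and 20.5 CPM, Dusp9 at 6.35 to 35.4 CPM against 6.83 and 15.2 CPM, and Spry1 at 13.5 to 27.3 CPM against 15.7 and 16.3 CPM. For these 3 genes the ranges overlapped, with log2 fold changes of -0.37 ± 0.58, 0.42 ± 0.60 and -0.13 ± 0.43.

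The Dazl-low cells of the 2 treatments also differed in their remaining germ cell transcripts. Dazl itself was at 92.9 to 214 CPM in 5C and 17.4 to 25.6 CPM in DMSO, and the 6 germ cell markers together at 223 to 425 and 70.7 to 78.9 CPM. Dazl is one of the 6 and is the gene that split the cells. Of the 8 pluripotency markers Sox2 was higher in 5C (489 to 696 against 204 to 216 CPM), and Tdgf1 (359.6 to 657 against 1122 to 1209 CPM), Utf1 (664 to 1039 against 1327 to 1350.2 CPM) and Nanog (186 to 254 against 272 to 275 CPM) were lower. The feeder fibroblast sum given above was also higher in all 5C libraries. The part of these differences in the values above was not tested. With the threshold at 200 CPM of Dazl, 6 of the 10 genes were again called higher, and at 800 CPM none was, where 1 gene of all tested was called higher and 3 lower.

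The 5C effect was then compared between classes in one fit of all 4 groups, with the same sums as above. Of the 13 libraries, 8 gave both a Dazl-low and a Dazl-high sum, and the fit treats these as separate samples. Spry4 alone of the 10 genes differed, by -3.92 ± 0.68 on the log2 scale (Dazl-low minus Dazl-high, edgeR adjusted p = 0.000869; -4.68 without DMSO replicate 2), where 6.38% of 14520 genes were called, 3.31% higher and 3.06% lower. Its 5C levels were alike in both classes, 37.6 to 74.6 CPM in Dazl-high and 44.6 to 89.4 CPM in Dazl-low sums, while its DMSO levels were 0 to 9.03 and 19.6 to 20.3 CPM. With the library as a block, an alternative added after the data were seen that compares the classes only within those 8 libraries, the Spry4 difference was -1.96 ± 0.76 and did not pass the test (edgeR adjusted p = 0.133). In that fit Etv4 alone of the 10 genes was called, with a larger 5C effect in Dazl-low cells (difference 1.73 ± 0.46, edgeR adjusted p = 0.0101), beside 335 genes higher and 353 lower of all tested. Libraries with only a Dazl-high sum drop out of that contrast, among them DMSO replicates 3, 4 and 5 (Spry4 at 1.88, 0.254 and 0 CPM). The 2 fits thus differ both in which libraries count and in how shared ones are treated, and these were not told apart. Without the block, Spry1 (difference -1.89 ± 0.63, edgeR adjusted p = 0.0673) and Dusp4 (-2.43 ± 1.09, adjusted p = 0.185) did not pass, nor did the other 7 genes. For Spry2 the difference was -0.12 ± 0.60 (adjusted p = 0.949). All 6 germ cell markers, with Dazl, the gene of the split, among them, were called with a larger 5C effect in Dazl-low cells in that fit (median difference 2.22), none of the 8 pluripotency markers was called, and 1 of 11 dissociation response genes was called with a smaller effect. Their part in the differences between classes was not tested.

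**Figure D2:**
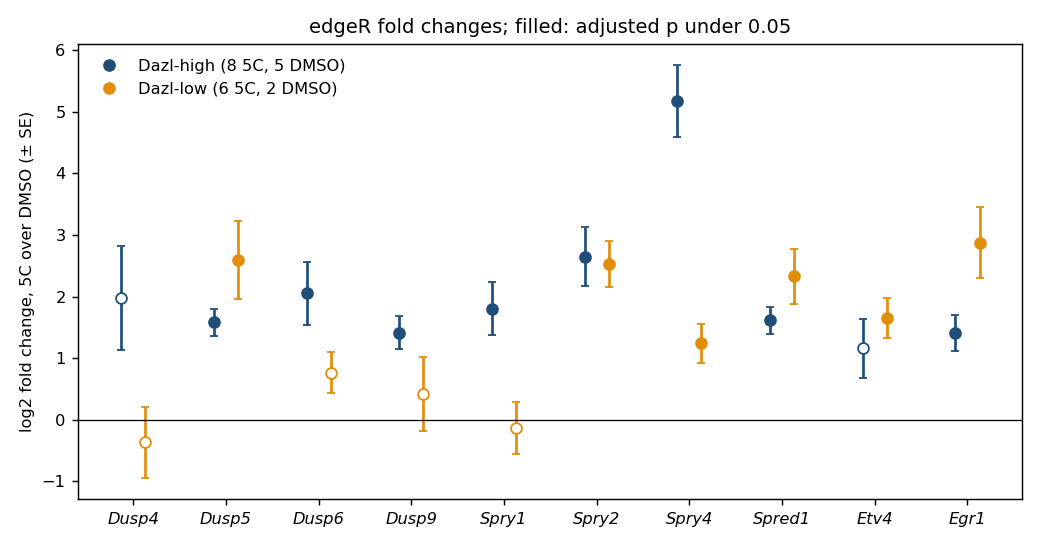
Log2 fold change of 5C over DMSO with its SE for each gene, in Dazl-high cells (blue) and Dazl-low cells (orange). Filled points passed the edgeR test, 8 in Dazl-high and 6 in Dazl-low cells, and Spry4 in Dazl-high cells lies at 5.18.

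Other genes of the pathway were listed by role. Of all genes tested, 12.3% were higher and 11.5% lower with 5C in Dazl-high cells. In Dazl-low cells 6.83% were higher and 9.89% lower. The counts in these lists are descriptions. Among 13 receptors, 8 were tested in Dazl-low cells and none was called, and in Dazl-high cells 2 of 11 were lower, Erbb2 (log2 fold change -1.08 ± 0.26, edgeR adjusted p = 0.00448) and Igf1r (-0.41 ± 0.14, adjusted p = 0.0377), and none higher. Of 26 components from the adaptors to the kinases below ERK, 1 was higher in Dazl-low cells, Rasa1, and in Dazl-high cells 4 of 25 tested were higher, among them Sos2 and Shc1, and Mknk1 was lower. The log2 fold change was 0.96 ± 0.21 for Shc1, an adaptor between receptors and RAS (edgeR adjusted p = 0.00228).

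Among 17 further feedback genes, 5 were higher and 2 lower of 14 tested in Dazl-high cells (all genes: 12.3% and 11.5%). In Dazl-low cells 2 of them were higher and 1 lower (all genes: 6.83% and 9.89%). Il17rd, a membrane inhibitor of FGF receptor signalling, was higher in both classes. Its Dazl-low levels were 37.1 to 69.5 CPM in 5C against 4.16 to 10.4 CPM in DMSO (log2 fold change 2.41 ± 0.45, edgeR adjusted p = 0.00185), and its Dazl-high fold change was 1.29 ± 0.33 (adjusted p = 0.00785). Spred3 was at 2.16 to 9.6 CPM in Dazl-high 5C sums and had no UMI in any of the 5 DMSO sums, which together allow up to 0.176 CPM. Against it ran Dusp10 and Dusp14, phosphatases, the latter at 8.23 to 20.5 CPM in 5C and 22.1 to 55.8 CPM in DMSO (log2 fold change -1.38 ± 0.28, edgeR adjusted p = 0.00136). In Dazl-low cells Dusp1, a phosphatase induced by stress, was lower in 5C (28.7 to 57.7 against 80.0 to 85.7 CPM, log2 fold change -1.24 ± 0.27, edgeR adjusted p = 0.00545).

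Of 15 further target genes, 7 were higher and none lower of 13 tested in Dazl-high cells (all genes: 12.3% and 11.5%). Their median log2 fold change was 1.58. Plaur, the urokinase receptor, was at 5.76 to 65.2 CPM in 5C and 0 to 8.03 CPM in DMSO, and Phlda1 at 19.9 to 63.6 against 1.02 to 20.1 CPM. In Dazl-low cells 4 were higher and 1 lower (all genes: 6.83% and 9.89%). Etv1, an ETS factor like Etv4, was at 28.7 to 69.9 CPM in 5C and 8.2 to 10.4 CPM in DMSO there (log2 fold change 1.98 ± 0.42, edgeR adjusted p = 0.00448), Myc at 45.5 to 133.9 against 17.6 to 22.9 CPM, and Ier3 was lower (log2 fold change -1.63 ± 0.38, adjusted p = 0.00807). In the fit without the library block, 3.31% of all genes tested were called with a larger 5C effect in Dazl-low cells. A smaller effect was called for 3.06%. It was larger for 3 of 11 receptors, 1 of 26 cascade genes and 1 of 16 further feedback genes. It was smaller for 1 further feedback gene and 3 of 14 further targets. The 5C effect on Ccnd1 (cyclin D1), Plaur and Phlda1 was smaller in Dazl-low than in Dazl-high cells, with differences of -3.33, -3.86 and -2.95 on the log2 scale.

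In the original condition the deposited annotation places the cells in 18 clusters, named by the study. SSC1 to SSC4 and RPG1 to RPG4 form the route to pluripotency, and the others carry fibroblast, early-pluripotency, meiotic or neural names. Clusters were made from these genes among others, so their levels are given with no test. Neural 4 had no library with 5 of its cells and is left out of the levels. Values are means ± SD over libraries, and n is the number of libraries.

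Along the route, Dusp6 stood at 62.9 ± 32.6 CPM in SSC1 (n = 28), 80.9 ± 42.1 in SSC2 (n = 23), 164 ± 40.1 in SSC3 (n = 18), 205 ± 49.6 in SSC4 (n = 16) and 173 ± 43.8 CPM in RPG1 (n = 7). It was lower in RPG2 (91.0 ± 17.9, n = 3) and RPG3 (88.3 ± 16.8, n = 8). Etv4 made the same step between SSC2 (31.4 ± 24.3 CPM) and SSC3 (75.2 ± 22.8), with its highest level in RPG2 (124 ± 31.4 CPM). Spry4 was at 13.04 ± 13.02 CPM in SSC1, 31.5 ± 11.6 in SSC3, 46.6 ± 14.5 in RPG1, 68.9 ± 24.0 in RPG2 and 52.7 ± 28.7 CPM in RPG3. In RPG4 (n = 2) Dusp6 was at 143 ± 51.7, Etv4 at 42.3 ± 15.4 and Spry4 at 21.05 ± 11.2 CPM. All 3 genes had higher means in SSC3 than in SSC2. Against RPG1, Dusp6 had lower means in RPG2, RPG3 and RPG4, while Etv4 and Spry4 had higher means in RPG2 and RPG3 and lower ones in RPG4.

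Dusp5, Dusp9 and Egr1 had lower means in RPG2, RPG3 and RPG4 than in RPG1. Dusp5 was at 42.4 ± 16.3 CPM in RPG1, 24.0 ± 22.6 in RPG2, 10.6 ± 7.11 in RPG3 and 1.5 ± 1.0 CPM in RPG4 (n = 2). Dusp9 was at 163 ± 35.8 CPM in RPG1, 14.9 ± 15.2 in RPG2 and 20.97 ± 9.86 CPM in RPG3, and Egr1 at 94.3 ± 28.6, 19.8 ± 14.6 and 29.4 ± 12.2 CPM. Spry2 and Dusp4 ran the other way. Spry2 was at 21.7 ± 6.63 CPM in RPG1, 67.9 ± 48.4 in RPG2 and 53.2 ± 14.1 CPM in RPG3, and Dusp4 at 11.001 ± 8.77, 55.5 ± 35.1 and 20.4 ± 11.3 CPM. Of the route's clusters Spry1 was lowest in SSC1 (10.3 ± 10.2 CPM), and over RPG1 to RPG4 its means were 30.2 ± 3.94, 18.6 ± 4.55, 27.8 ± 13.6 and 21.9 ± 7.43 CPM. Spred1 began at 22.1 ± 15.5 CPM in the SSC1 cluster, and its means over RPG1 to RPG4 were 56.0 ± 27.9, 37.4 ± 18.4, 27.7 ± 11.5 and 58.4 ± 9.62 CPM.

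**Figure D3:**
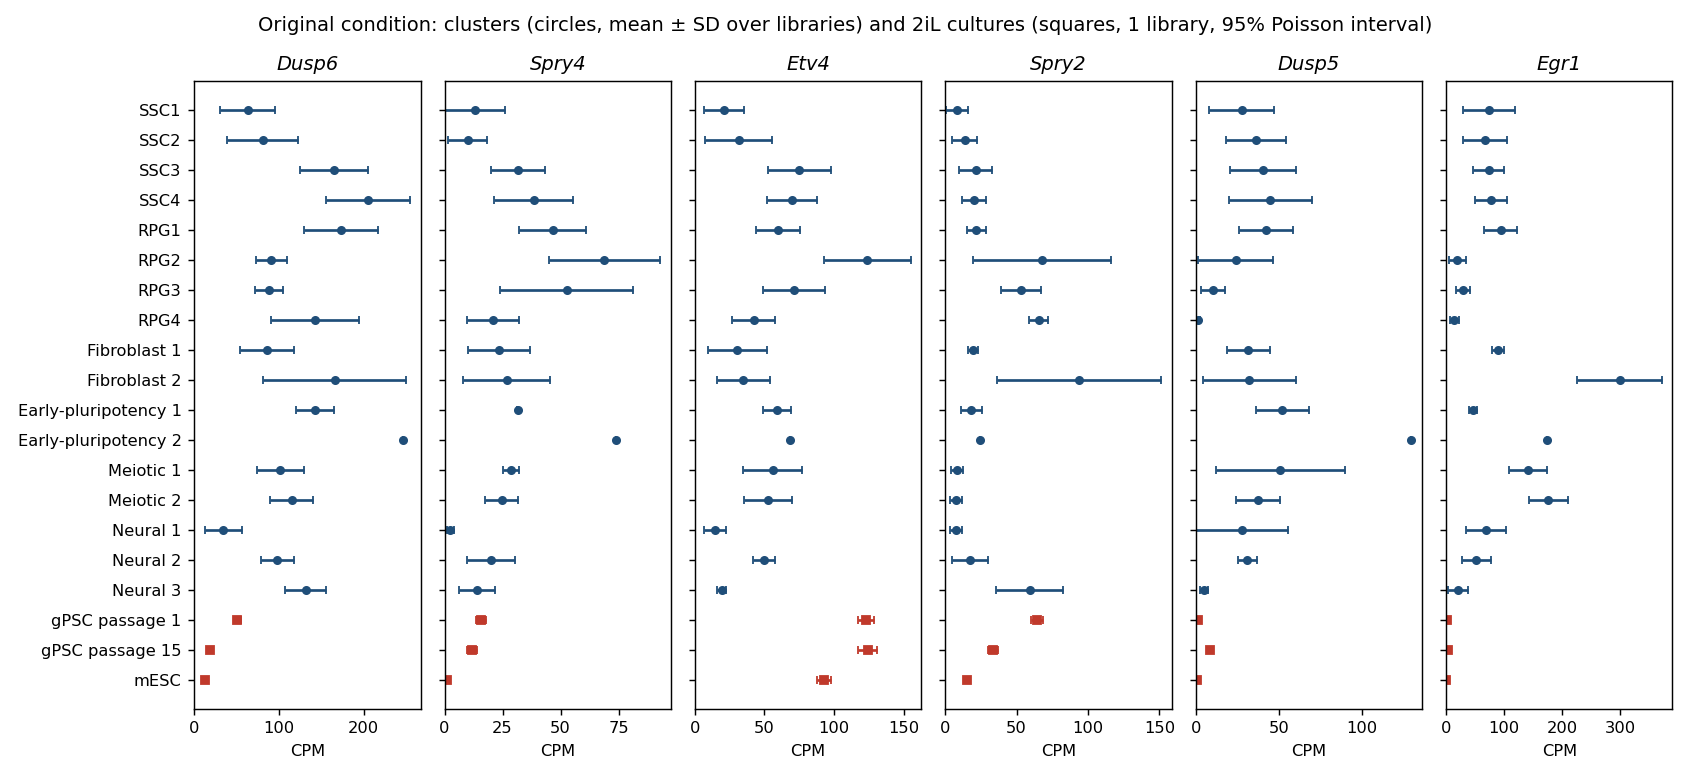
Levels (CPM) of 6 of the genes in 17 clusters of the original condition (blue circles, mean ± SD over libraries with at least 5 cells, no bar where there is 1 library) and in the 3 cultures in 2iL medium (red squares, 1 library each with a 95% Poisson interval). Dusp6, Dusp5 and Egr1 lie lowest or near lowest in these cultures, and Etv4 lies at 92.8 to 124 CPM there.

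Outside the route, Early-pluripotency 2, which is 1 library of 76 cells, had the highest mean of Dusp6 (247 CPM), Dusp5 (129 CPM), Spry4 (73.9 CPM), Spred1 (141 CPM) and Spry1 (49.4 CPM) among the 17 clusters. Neural 1 was lowest in Dusp6 (34.2 ± 21.7 CPM, n = 8), Spry4 (2.54 ± 1.48 CPM) and Etv4 (14.6 ± 8.01 CPM). Egr1 was highest in Fibroblast 2 (299 ± 72.6 CPM, n = 3), followed by Meiotic 2 (177 ± 33.2 CPM, n = 5). In Fibroblast 2 Fos was at 465 ± 265 CPM, against 48.6 ± 59.4 CPM in SSC1, and the 12 dissociation response genes summed to 2832 ± 1271 CPM against 639 ± 161 CPM. Their part in the Egr1 level was not tested. In the order of cluster means, neighbours mostly differed by less than the larger of their SDs. A larger gap stood between 0 of the 16 neighbouring pairs for Dusp6, Spry4 and Spry1, and at most 3, for Egr1.

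The clusters' mean log2(CPM + 1) was used to find genes with a like pattern, over all 18 clusters and 11764 genes with a mean of at least 5 CPM. The 5 genes most like Dusp6 were Vasp (Pearson r = 0.885), Adrbk1 (0.847), Nim1k (0.815), Hs3st3b1 (0.810) and Ncdn (0.793). For Spry4 they were Etv4 (0.824), Etv5 (0.822), Cd38 (0.819), Fam160b2 (0.796) and Limk2 (0.789). Dusp6 and Spry4 had r = 0.741 with each other, and Egr1 had -0.08 with Dusp6 and -0.06 with Spry4. The points share libraries and clusters built from these data.

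The cultures in 2iL medium, which contains the MEK inhibitor PD0325901, were 1 library each, so no test was possible and intervals (95% Poisson) cover counting error only. Egr1 was at 1.64 CPM (1.04 to 2.46) in gPSCs at passage 1, 2.68 (1.79 to 3.84) at passage 15 and 0.203 CPM (0.0418 to 0.592) in ESCs, the last from 3 UMIs. Dusp5 was at 1.71 (1.1 to 2.54), 8.4 (6.76 to 10.3) and 0.81 CPM (0.419 to 1.42). Dusp6 was at 51.0 (47.3 to 54.9), 18.3 (15.8 to 21.01) and 12.7 CPM (10.9 to 14.6). Egr1 lay below every cluster mean. Dusp6 lay below its means in RPG2, RPG3 and RPG4 in all 3 cultures, while Dusp5 in them lay on both sides of its RPG4 mean and below its RPG3 mean. Dusp9 was at 28.998, 47.6 and 20.5 CPM in passage 1, passage 15 and ESCs, which is above its means in RPG2 (14.9 CPM) and RPG4 (11.7 CPM) in all 3 cultures and above that in RPG3 (20.97 CPM) at both gPSC passages. Spry1 was at 18.95, 17.4 and 6.82 CPM, Spred1 at 18.9, 16.5 and 9.05 CPM, and Dusp4 at 1.85, 0.462 and 1.55 CPM.

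Spry4 was at 15.6 CPM (13.6 to 17.8) in passage 1, 11.6 (9.69 to 13.8) in passage 15 and 1.01 CPM (0.567 to 1.67) in ESCs. Spry2 was at 64.1 (59.9 to 68.4), 33.5 (30.1 to 37.1) and 15.2 CPM (13.3 to 17.3). In both Sprouty genes ESCs had the lowest of the 3 levels, with intervals that did not meet those of the gPSC passages. Etv4 was at 123 (117 to 129), 124 (118 to 131) and 92.8 CPM (88.0 to 97.8), near its mean in RPG2 at both gPSC passages, and its relative Etv5 at 204, 253 and 265 CPM.

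The last comparison asked whether the genes moved with day of culture within SSC1 to SSC4 cells. It used 36 libraries with 2248 cells on 9 days, with day as a number. None of the 10 genes passed the test as a linear trend (edgeR, adjusted p under 0.05), where 4.02% of 17882 genes were called, 1.32% higher and 2.7% lower. By unadjusted p under 0.05 there were 2, Etv4 and Dusp6, against 16.4% of all genes, and DESeq2 called none. Etv4 changed by 0.89 ± 0.29 on the log2 scale per 10 days (edgeR adjusted p = 0.0669) and Dusp6 by 0.57 ± 0.24 (adjusted p = 0.195). In batch B1 alone none of the 10 was called, and batch B2 held 7 libraries of 3 days.

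**Figure D4:**
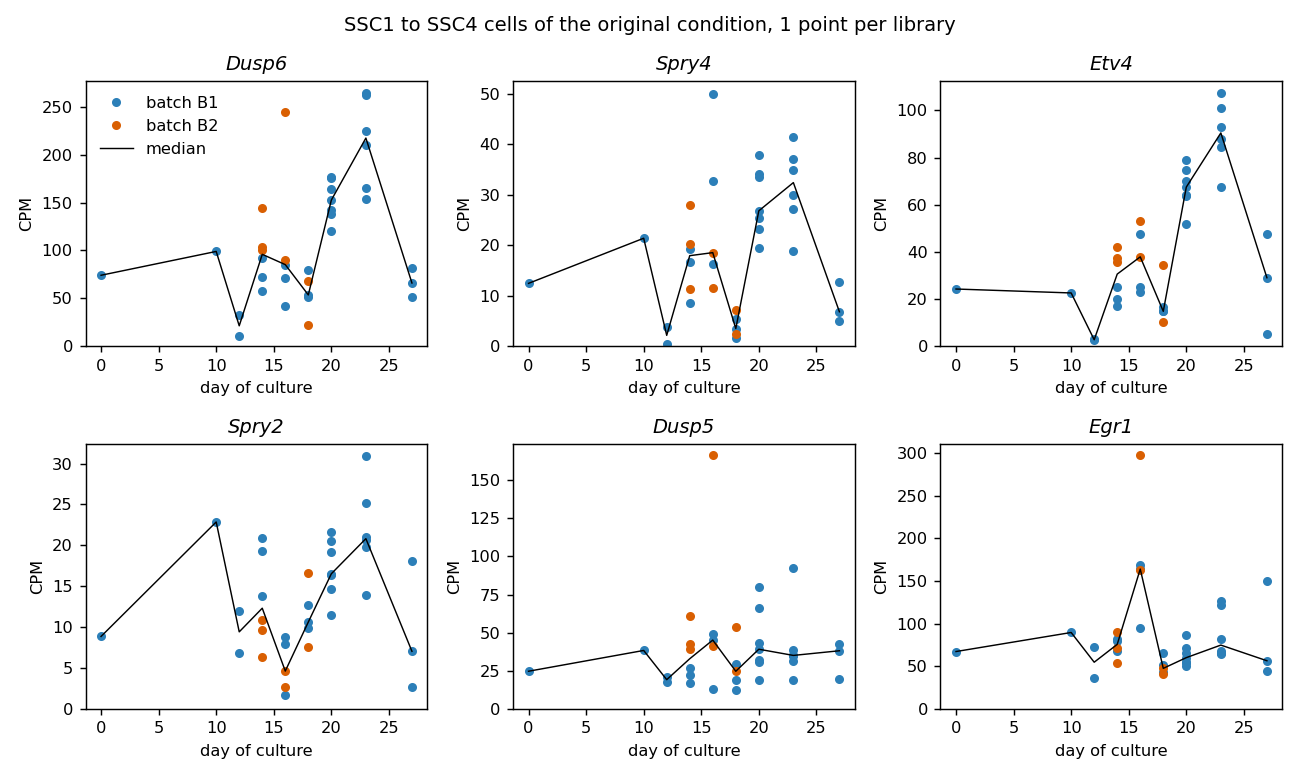
Level (CPM) of 6 genes in SSC1 to SSC4 cells of the original condition by day of culture. Each point is one library, coloured by batch, and the line joins the medians; Dusp6 and Etv4 were lowest on day 12 and highest on day 23.

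The levels did not follow a line. Dusp6 was at 74.0 CPM in the day 0 library, 99.0 on day 10, and 10.1 and 32.3 CPM in the 2 libraries of day 12. Its lowest, median and highest library were 57.2, 95.9 and 144 CPM on day 14, 120.1, 152.6 and 177 CPM on day 20, and 154, 217.5 and 264 CPM on day 23. On day 14 the batches did not overlap for Dusp6, at 57.2 to 91.7 CPM in B1 and 100.2 to 144 CPM in B2 (3 libraries each). On day 16, 4 libraries were at 42.1 to 90.4 CPM and replicate 6, of 8 cells, at 245 CPM, and on day 27 the 3 libraries ran from 51.3 to 81.2 CPM. Days 20 and 23 lay above all libraries of days 0, 10, 12, 18 and 27 for Dusp6, and day 20 overlapped day 14. Of day 16 only replicate 6 reached the levels of days 20 and 23.

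Etv4 was at 24.2 CPM on day 0, at 2.5 and 2.89 CPM on day 12, at 51.8 to 78.9 CPM on day 20, at 67.4 to 107 CPM on day 23 and at 4.9 to 47.6 CPM on day 27. Spry4 was at 0.503 and 3.75 CPM on day 12, 11.5 to 50.1 CPM on day 16 and 1.69 to 7.11 CPM on day 18. It was at 18.8 to 41.5 CPM on day 23, which overlaps day 16, and at 4.95 to 12.7 CPM on day 27. Egr1 had its highest median on day 16, at 163.9 CPM (95.2 to 298), where 4 of the 5 libraries held 7 to 10 SSC cells. The library at 298 CPM (8 cells) also had the highest sum of dissociation response genes, 1510.1 CPM against 635 to 822 CPM in the other 4 of that day, and their part was not tested. Egr1 had its lowest median on day 18, at 47.4 CPM (40.9 to 64.9).

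The make-up of the SSC cells also differed between days. SSC3 and SSC4 cells were 11.7% of the SSC cells on day 0, 26% on day 10, 1.1% in each library of day 12, 5.88 to 30.9% on day 14, 0 to 9.09% on day 16, 0 to 3.6% on day 18, 51.1 to 82.0% on day 20 75.0 to 97.8% on day 23 and 20.0 to 34.2% on day 27. Within SSC1 cells alone Dusp6 was at 8.86 and 31.9 CPM on day 12 and at 42.6, 73.0 and 140 CPM in the lowest, median and highest library of day 20. Etv4 in SSC1 cells was at 2.55 and 3.03 CPM on day 12, at 19.95, 36.5 and 52.3 CPM in the lowest, median and highest of 5 libraries of day 20 and at 0 to 16.6 CPM on day 27, so that days 12 and 20 did not overlap. Its linear change over all days in these cells was -0.15 per 10 days on the log2 scale (edgeR adjusted p = 0.942). The part of the make-up in the day-by-day levels was not tested. Without day 27, Etv4 (log2 change 1.12 per 10 days, edgeR adjusted p = 0.015) and Dusp6 (0.81, adjusted p = 0.0398) were called higher, beside 304 genes higher and 365 lower of all tested. Without day 0 Etv4 was called higher (1.38, adjusted p = 0.0263), beside 365 higher and 565 lower.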

How the data were processed

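The values are UMI counts per gene and cell, deposited by the authors as raw whole numbers. Submitters' processing notes name STAR 2.7.2b, featureCounts 2.0.0 and mm10, and the cells used are those that passed the authors' quality filters. For the 5C and DMSO cells that passed, the counts were read from the authors' raw count tables. The RNA of the 5C and DMSO cells came from the supernatant of lysed single cells. The authors' table of cells also holds a deposited percent of mitochondrial UMIs, used for no result. Methylation files were not used. The 10 genes and all gene lists were chosen with earlier results of these data known.

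Counts were summed per library over Dazl-low or Dazl-high cells (400 CPM), or over annotated clusters, where at least 5 cells were present. Levels are CPM without further scaling. Fold changes are from edgeR 4.0.16 in R 4.3.3 (TMM, filterByExpr, quasi-likelihood test), adjusted by Benjamini-Hochberg over all genes tested, with 0.05 as threshold. The fits compared 5C with DMSO in each class, the difference between classes, and day (per 10 days) in SSC1 to SSC4 cells. They were tested on simulated data with 200 changed genes. Alternatives were DESeq2 1.42.0 with its size factors, no filter, at least 10 cells, Dazl at 200 or 800 CPM, batch as a covariate, a replicate block, the library as a block in the difference between classes, and leaving out each library or day.

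Genes were named by rule: the 10 genes, and from each list up to 3 called genes a direction with the largest fold change, of which 1 gene is not reported here. Patterns alike were sought with log2(CPM + 1) over 18 clusters, where Neural 4 entered as its sum over all libraries. Sequences are from RefSeq, gene coordinates from GENCODE vM21 on GRCm38. Replicate numbers did not pair 5C with DMSO libraries: same-numbered libraries' deviations correlated by -0.0851 to 0.0685 over 5 numbers. In the marker lists, no neural or feeder fibroblast marker tested was called, though only 1 of 4 and 2 of 8 could be tested in each 5C comparison, 3 and 4 in the difference between classes, and all over day. Of 6 germ cell markers 3 were higher in Dazl-low cells (Tex101, Ddx4 and Dazl, the gene of the split) and 3 lower in Dazl-high cells with 5C, and of 8 pluripotency markers 1 was higher and 3 lower in Dazl-low cells and 1 higher in Dazl-high cells. Over day, 1 receptor and 2 further targets were called higher, 1 germ cell marker lower, and no cascade, further feedback or dissociation response gene.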

Additional observations from a re-analysis of the deposited data

Results flagged for a closer look

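Of 80 sets of 4 to 10 libraries checked, 10 held a library far from the others by Dixon's criterion, and chance gives about 1 in 20. In the 5C and DMSO cultures these were Dusp4 in Dazl-low 5C replicate 3 (50.6 CPM, from 7 cells), and Dusp4 (12.9 CPM) and Spry4 (9.03 CPM) in Dazl-high DMSO replicate 2 (13 cells).

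In SSC1 to SSC4 cells, the highest library stood apart on day 16 for Dusp5 (166 CPM) and Dusp6 (245 CPM), both in replicate 6 (8 cells). It also did for Dusp4 (3.89 CPM) in replicate 4 (33 cells), where the other libraries of that day, of 7 to 10 cells, held no Dusp4 UMI. On day 18 replicate 4 (6 cells) stood apart for Spred1 (85.4 CPM) and Etv4 (34.4 CPM), and on day 23 replicate 6 did for Dusp5 (92.5 CPM). The lowest library stood apart for Spry1 on day 14 (10.1 CPM, replicate 2).

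The 5C effect on Spry4 differed between Dazl-low and Dazl-high cells by -3.92 on the log2 scale (edgeR interaction term, adjusted p = 0.000869). With the library as a block the difference was -1.96 (adjusted p = 0.133) and did not pass.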

How the results depend on the processing

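In Dazl-low cells, the 6 genes called higher became 0 with Dazl at 800 CPM and 1 to 7 with a library left out (1 without DMSO replicate 1, 4 without DMSO replicate 2). In Dazl-high cells, the 8 became 8 to 10 with a library left out (1235 to 1688 of all genes higher), 9 with a replicate block, and, in comparisons chosen after seeing the data, 2 with day 16 5C libraries (42 of all genes) and 10 without both DMSO sums under 20 cells (2101 of all genes). The 1 gene with a different effect between classes became 2 with DESeq2 or at least 10 cells, and 0 at 800 CPM. With the library as a block, chosen after seeing the data, Spry4 was lost (0 lower) and Etv4 gained (1 higher), and Dusp6 (0.054) and Spry2 (0.068) turned in sign. Over day, the 0 called higher became 1 without day 0 and, chosen after seeing the data, 2 without day 27. The replicate block left 0 over day. It could not be fitted in Dazl-low cells, where 5C and DMSO shared 1 number, and the numbers did not pair the libraries.

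Signs turned as follows, all in values that had not passed the test. In Dazl-low cells, Dusp4 was 0.34 and Spry1 0.31 at 800 CPM, and Dusp9 -0.016 to 1.07 with a library left out (-0.016 without DMSO replicate 1). Between classes at 800 CPM, Dusp5 was -0.077, Spry2 0.028 and Egr1 -0.28. With a library left out, Spry2 was -0.38 to 0.21 (above 0 without 5C replicate 1, 5C replicate 5 or DMSO replicate 4) and Etv4 -0.52 to 0.90 (-0.52 without DMSO replicate 1), and Etv4 was -0.39 with at least 10 cells. Over day, Dusp5 was -0.013 with the replicate block and -0.0082 without day 12. With one sum per batch and day, Spry1 was -0.019 and Spry2 -0.036. In SSC1 alone, Dusp9 was -0.21, Spry1 -0.28, Spry2 -0.014, Etv4 -0.15 and Egr1 0.13, in SSC2 alone Spry1 -0.33 and Spry2 -0.30, and without day 27 Spred1 0.15. The causes were not tested.

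Over all genes, Dazl-low calls higher and lower were 795 and 1152, and 158 and 468 without DMSO replicate 1, 115 and 459 without DMSO replicate 2. DESeq2 called 1294 higher. Dazl-high calls were 1530 and 1436, and 890 and 596 with the replicate block. Between classes, 481 and 445 became 752 and 700 with at least 10 cells, 235 and 195 with the replicate block, and 0 and 0 at 800 CPM. Whichever library was left out, fewer genes were called higher between classes than in the main fit. Over day, 236 and 482 became 624 and 801 with no filter, 500 and 824 with at least 10 cells, 34 and 83 with the replicate block, and 0 and 0 with one sum per batch and day.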

Other observations

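Spry2 in Dazl-low DMSO sums (8.89 and 8.16 CPM) lay below its RPG3 level in the original condition (53.2 ± 14.1 CPM, n = 8), and Dazl-low 5C sums (41.6 to 86.2 CPM) spanned it. The sets were made by different library methods, and no test was run between them.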
